A study of Arabidopsis thaliana with 2 samples.

Results

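The large, 60S subunit of the cytosolic ribosome was examined through 60 nuclear genes for its proteins L3 to L28, without the acidic stalk proteins, in seedlings carrying a GFP-TIE1 transgene and in wild type. Expression was measured on 2 Affymetrix arrays made from the shoots of Arabidopsis thaliana seedlings aged 14 days, 1 of the transgenic line GFP-TIE1-15 and 1 of the wild type Columbia-0. Both were grown alike on half-strength medium under long days, with 16 h of light. Each value is 1 array's signal for 1 probe set, the group of short probes that reports a transcript. The genes were chosen from a list of loci with earlier results of these 2 arrays known, so their ratios are a description of these arrays. Since each genotype had 1 array, no test was possible, no error can be given, and the differences between genotypes have no replicate check. The labels do not name the promoter of the transgene, give only 1 line and do not say how many plants entered an RNA sample.

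Of the 60 genes, 37 had a probe set assigned to exactly 1 gene, out of 13286 such genes in all. Of the other 23, 6 lay only on probe sets shared by several genes and 17 had no named probe set here. A probe set was counted as measured if the brighter array reached a signal of 200.02, which is 40% of the arrays' trimmed mean. By that minimum 36 of the 37 genes were measured, for 18 of the 26 proteins, and all 36 passed it on both arrays. The minimum therefore did not fix the sign of any of their ratios. The exception was the L13 gene AT3G48960, with a signal of 23.9 in GFP-TIE1-15 and 40.1 in wild type. No gene of L3, L5, L8, L10, L11, L21, L23a or L24 gave a value, though L21 genes lay on shared probe sets.

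Each cytosolic ribosome is built from a small 40S and a large 60S subunit, and the large one holds the catalytic centre that joins amino acids and the tunnel through which the new protein leaves. In Arabidopsis most of its proteins are encoded by a small family of paralogous genes. Ribosomal protein genes are known to be highly expressed in growing tissue, and several, such as the PIGGYBACK genes for L10a, L9 and L5, are known from mutants with altered leaf shape. TIE1, the protein fused to GFP in the transgene, is known to bind transcription factors of the TCP family and to link them to corepressors. The protein made by each locus is given here as in the general nomenclature of the species. Of the 60 listed genes, 17 have a symbol other than their locus number in the reference gene list. Only PGY1 of these is among the 36 measured genes, and the others had no probe set assigned to 1 gene. The measured genes are therefore not an even sample of the list, since genes with such a symbol were mostly lost. Genes with such a symbol in the 40S and other 60S lists below, such as RPS5A and RPL24A, were lost too. Some marker genes with a symbol, such as RCA and PYK10, were kept. Beyond the lists used here, the loss of genes was not tested.

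All 36 measured 60S genes had a higher signal in GFP-TIE1-15 than in wild type, by a similar and moderate amount. Across the genes the signal had a lowest value of 1174.4, a median of 7381.6 and a highest value of 13780.8 in GFP-TIE1-15, against 687.2, 4785.7 and 9303.6 in wild type. The log2 ratio, which is that of GFP-TIE1-15 over wild type throughout and was taken after a pseudocount of 50 had been added to each signal, had a median of 0.61, a fold of 1.53. It ran from 0.29 to 1.09, with quartiles of 0.54 and 0.71 and an SD among genes of 0.18. The summed signal of the 36 genes, in which bright probe sets weigh most, was 1.51 times as high in GFP-TIE1-15. Of all 5914 measured named genes, 52.5% had a ratio above 0, and the median over them was 0.02.

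By a fixed rule of size, 30 of the 36 genes had a log2 ratio of at least 0.5, which 10.4% of all measured named genes reached. Only 2 of the 36 were at least 2-fold higher, by a log2 ratio of at least 1, a size reached by 1.17% of all measured named genes. These counts come from the contrast with which the genes were chosen, so nothing is read from their distance to the background. The highest of the 36 stood at place 50 among the 5914 genes ordered by ratio, and the lowest at place 1291. These RNA samples come from whole shoots, in which more cells of a type and more RNA per cell cannot be told apart.

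**Figure D1:**
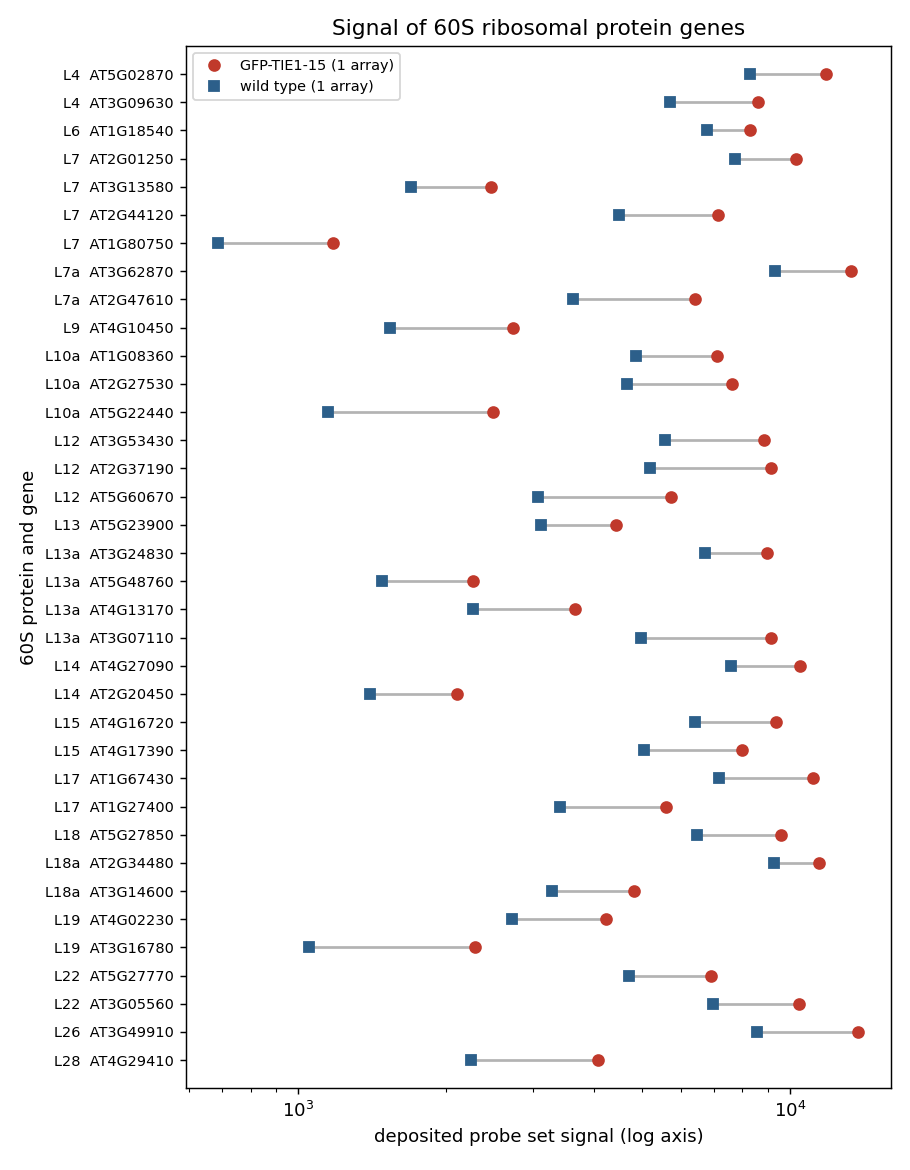
Deposited signal (log axis) of each measured 60S gene, 1 row per gene ordered by protein, with a circle for the GFP-TIE1-15 array and a square for the wild-type array. In all 36 rows the circle lies to the right of the square.

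The tunnel through which the new protein leaves is lined in part by L4 and L17, and L26 sits near its mouth. The L4 gene AT5G02870 had a signal of 11817.2 in GFP-TIE1-15 and 8308.6 in wild type, a log2 ratio of 0.51. Its paralogue AT3G09630 had 8609.4 in GFP-TIE1-15 and 5711.0 in wild type, a log2 ratio of 0.59. The paralogues of L4 thus had nearly the same ratio. For L17, AT1G27400 had 5581.4 in GFP-TIE1-15 and 3409.6 in wild type, and AT1G67430 had 11111.6 in GFP-TIE1-15 and 7178.6 in wild type. Their log2 ratios of 0.70 and 0.63 also lay close together. The L26 gene AT3G49910, with 13780.8 in GFP-TIE1-15 and 8568.5 in wild type, gave the highest GFP-TIE1-15 signal of the 36 and a log2 ratio of 0.68. All 5 tunnel genes had a log2 ratio of at least 0.5, from 0.51 to 0.70.

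The mobile L1 stalk, which helps the spent tRNA leave, is formed by L10a, and the base of the acidic stalk by L12. The L10a gene PGY1 (AT2G27530), whose mutants are known for altered leaf shape, had a signal of 7628.4 in GFP-TIE1-15 and 4652.0 in wild type, a log2 ratio of 0.71. AT1G08360 had 7108.8 in GFP-TIE1-15 and 4871.9 in wild type, a log2 ratio of 0.54. The other L10a gene, AT5G22440, had 2485.6 in GFP-TIE1-15 and 1151.3 in wild type, a log2 ratio of 1.08. It was one of the 2 genes of the list past the 2-fold rule. For L12, AT5G60670 had 5738.7 in GFP-TIE1-15 and 3065.5 in wild type, a log2 ratio of 0.89. AT2G37190 had 9133.7 in GFP-TIE1-15 and 5186.6 in wild type, a log2 ratio of 0.81. AT3G53430 had 8868.3 in GFP-TIE1-15 and 5563.5 in wild type, a log2 ratio of 0.67. All 3 L12 genes were therefore above the median of the 36, and their mean of 0.79 was exceeded by the means of L19, L28 and L9 only, of which L28 and L9 rest on 1 gene each and a shared L9 probe set was lower, at 0.38.

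A contact between the subunits is formed in part by L19, which also gave the highest ratio of the 36. Its gene AT3G16780 had a signal of 2286.5 in GFP-TIE1-15 and 1049.7 in wild type, a log2 ratio of 1.09. The other measured L19 gene, AT4G02230, had 4223.3 in GFP-TIE1-15 and 2719.7 in wild type, a log2 ratio of 0.63. One L19 paralogue thus passed the 2-fold rule while the other lay near the median of the list.

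L7, L9 and L13a belong, with the proteins of the tunnel and of both stalks above, to those that bacterial ribosomes share. The L7 gene AT1G80750, the dimmest of the 36, had a signal of 1174.4 in GFP-TIE1-15 and 687.2 in wild type, a log2 ratio of 0.73. AT2G44120 had 7134.8 in GFP-TIE1-15 and 4487.4 in wild type, a log2 ratio of 0.66. AT3G13580 had 2468.5 in GFP-TIE1-15 and 1698.2 in wild type, a log2 ratio of 0.53. The L7 gene with the smallest difference was AT2G01250, with 10286.2 in GFP-TIE1-15 and 7714.8 in wild type, a log2 ratio of 0.41. The only L9 gene with a value, AT4G10450, had 2738.8 in GFP-TIE1-15 and 1534.3 in wild type, a log2 ratio of 0.82. A probe set shared by both other L9 genes, which names neither, had 7310.7 in GFP-TIE1-15 and 5602.6 in wild type, a log2 ratio of 0.38. The ratio of L9 thus rests on which probe set is taken.

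The 4 measured L13a genes spread almost as widely as those of L10a. AT3G07110 had a signal of 9128.5 in GFP-TIE1-15 and 4985.8 in wild type, a log2 ratio of 0.87. AT4G13170 had 3651.2 in GFP-TIE1-15 and 2265.0 in wild type (0.68), and AT5G48760 had 2262.9 in GFP-TIE1-15 and 1477.3 in wild type (0.60). AT3G24830 had 8983.0 in GFP-TIE1-15 and 6722.0 in wild type, a log2 ratio of 0.42. Signals of different probe sets are not on 1 scale of level, so paralogues are compared by their ratios only.

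The remaining proteins, like L19, have no counterpart in the bacterial ribosome. The L28 gene AT4G29410 had a signal of 4064.6 in GFP-TIE1-15 and 2245.2 in wild type, with a log2 ratio of 0.84, the highest among the proteins without a bacterial counterpart after that of AT3G16780 of L19. For L7a, AT2G47610 had 6399.9 in GFP-TIE1-15 and 3626.3 in wild type (0.81), and AT3G62870 had 13336.9 in GFP-TIE1-15 and 9303.6 in wild type (0.52). For L15, AT4G17390 had 7969.5 in GFP-TIE1-15 and 5038.0 in wild type (0.66), and AT4G16720 had 9347.5 in GFP-TIE1-15 and 6410.0 in wild type (0.54). These 3 proteins lay on both sides of the median of the list. For L22, AT3G05560 had 10448.4 in GFP-TIE1-15 and 6963.9 in wild type (0.58), and AT5G27770 had 6913.7 in GFP-TIE1-15 and 4699.5 in wild type (0.55). The L18 gene AT5G27850 had 9587.7 in GFP-TIE1-15 and 6481.4 in wild type, a log2 ratio of 0.56. L22, the protein with the most alike paralogues, differed by 0.03 between them.

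The smallest ratios of the list also belonged to this group. The L6 gene AT1G18540 had a signal of 8300.5 in GFP-TIE1-15 and 6789.1 in wild type, a log2 ratio of 0.29. The L18a gene AT2G34480 had 11433.5 in GFP-TIE1-15 and 9259.2 in wild type, a log2 ratio of 0.30, while its paralogue AT3G14600 had 4810.5 in GFP-TIE1-15 and 3272.5 in wild type, a log2 ratio of 0.55. AT1G18540 and AT2G34480 were the lowest genes of the list, with folds of 1.22 for L6 and 1.23 for AT2G34480. For L14, AT4G27090 had 10460.2 in GFP-TIE1-15 and 7602.4 in wild type (0.46), and AT2G20450 had 2104.6 in GFP-TIE1-15 and 1396.5 in wild type (0.57). The L13 gene AT5G23900 had 4420.2 in GFP-TIE1-15 and 3119.0 in wild type, a log2 ratio of 0.496, just under the lower size rule. With L6, L18a, L14 and L13, this group held 4 of the 6 genes under a log2 ratio of 0.5, the others being AT2G01250 of L7 and AT3G24830 of L13a.

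Split by evolutionary class, the 20 genes of proteins shared with bacteria had a median log2 ratio of 0.67 and a range from 0.41 to 1.08. The 16 genes of the other proteins had a median of 0.56 and a range from 0.29 to 1.09. At least 0.5 was reached by 18 of the 20 genes and by 12 of the 16, beside 10.4% of all measured named genes. The ranges overlapped over most of their length, and no difference between the classes was tested. Over the 18 proteins, with paralogues averaged first, the means ran from 0.29 for L6 to 0.86 for L19, and 15 were at least 0.5.

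Paralogues of 1 protein could be compared for 12 proteins with 30 measured genes. The difference between the highest and lowest log2 ratio of a protein had a median of 0.24 and ran from 0.03 for L22 to 0.54 for L10a. It was at least 0.3 for L10a, L19, L13a and L7. For comparison, the probe sets of 1 gene were set against each other in the 25 genes of any kind with several measured probe sets. Their log2 ratios differed by a median of 0.12 and by up to 0.54. The paralogue difference was above that median for 7 of the 12 proteins and above that highest value for none. A difference between highest and lowest tends to grow with the number of values. L10a had 3 genes, L13a and L7 had 4 each and L19 had 2, and this number was not matched in the comparison. All 30 genes had a ratio above 0, so paralogues differed in size and not in direction. The 36 probe sets carry none of the marks for sharing by several transcripts, but whether close paralogues bind the same probes was not tested.

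**Figure D2:**
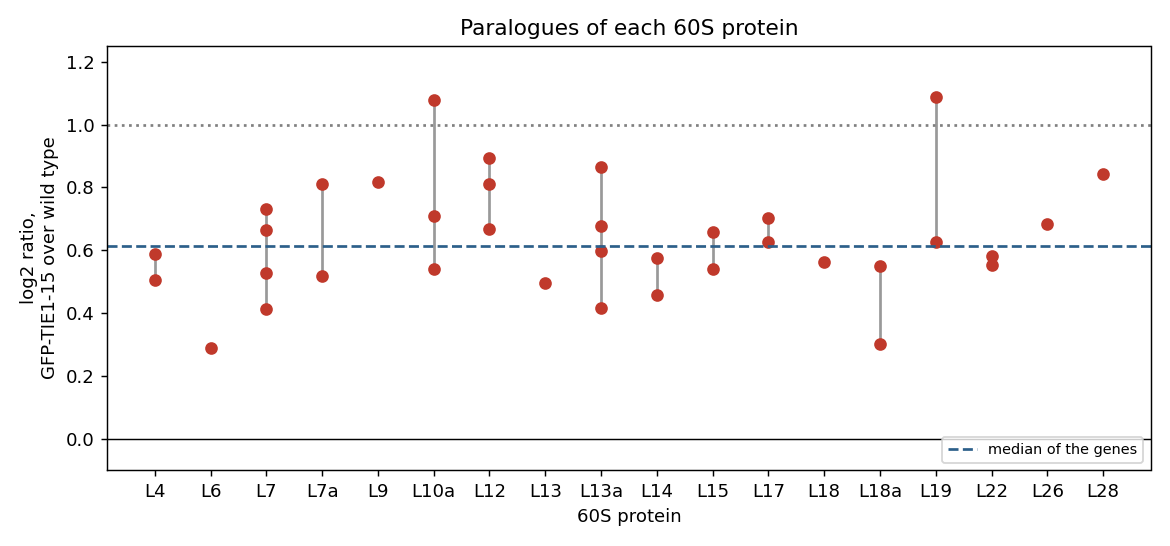
Ratio of GFP-TIE1-15 to wild type on a log2 scale (y axis) for each measured gene (points), by 60S protein (x axis), with vertical lines joining paralogues, a dashed line at the median of 0.61 and a dotted line at the 2-fold rule. The points of every protein lie above 0, and only 1 gene each of L10a and L19 lies above the dotted line.

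The ratio was smaller in the brightest genes of the list. The 12 dimmest genes by mean signal, from 930.8 to 4041.5, had a median log2 ratio of 0.65. The 12 in the middle had a median of 0.69, and the 12 brightest, from 7544.8 to 11320.2, a median of 0.51. Genes of other kinds in the same ranges of signal had medians of -0.01 over 1381 genes, -0.05 over 96 genes and -0.21 over 44 genes. The brightest genes were thus lower in ratio both among the 60S genes and among other genes. Across the 36 genes, log2 ratio and mean log2 signal had a Spearman's rho of -0.51, with both measures taken from the same arrays.

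The ratios were also set beside those of probe sets of like signal, as a description only, since the genes were chosen with this contrast known. For each gene the 500 probe sets nearest in mean signal, without the listed cytosolic ribosomal genes, gave a local median between -0.10 and 0.04 and a local SD, from the median absolute deviation, between 0.27 and 0.31. All 36 genes lay more than 1 local SD above the local median, and 24 lay more than 2 above it. The share of all measured genes at such distances was not counted, so nothing is read from these counts. At the bright end these 500 probe sets are less alike in signal, since few are so bright. In the range of the 12 brightest 60S genes there were 44 other named genes, with a median of -0.21. No local median was as low as that, so distances of the brightest genes depend on the window. The local SD describes spread among genes on these arrays, not between plants. The distance from the local median ran from 0.35 for AT1G18540 to 1.07 for AT3G16780. The SD among the 60S genes, at 0.18, is an ordinary one and so is not a like measure to these local SDs. The ordinary SD over measured named genes other than the listed cytosolic ribosomal ones, at any signal, was 0.43.

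**Figure D3:**
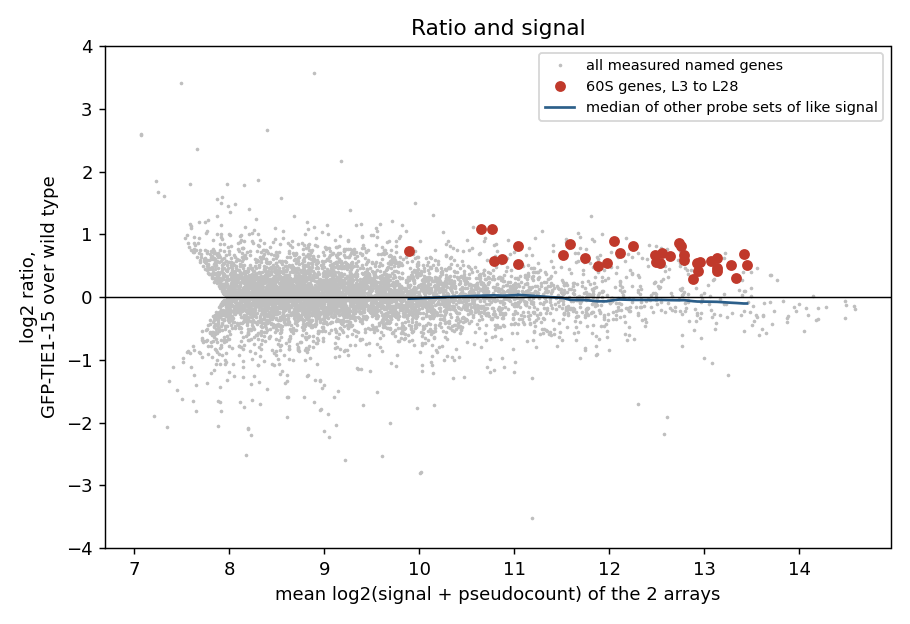
Ratio of GFP-TIE1-15 to wild type on a log2 scale (y axis) against the mean log2(signal + 50) of both arrays (x axis) for all 5914 measured named genes (grey) and the 36 60S genes (red), with a line for the median of other probe sets of like signal. The red points form a band above the line, which stays between -0.10 and 0.04.

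The higher genes of like signal were also counted, again as a description, since the list was chosen with this contrast known. In the range of mean signal that the 36 genes span there were 1650 named genes, of which 157, or 9.52%, had a log2 ratio of at least 0.5. The 36 genes gave 30 of these 157, or 19.1% of them. All listed cytosolic ribosomal protein genes together gave 76, or 48.4%. The remaining 81 genes were 5.21% of the other genes in that range.

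The other parts of the cytosolic ribosome had ratios like those of L3 to L28. These lists were also chosen with earlier results known, and no difference between lists was tested. Among all measured named genes, 52.5% had a log2 ratio above 0 and 10.4% had one of at least 0.5. Of the other 60S protein genes, 32 of 57 had a probe set of 1 gene and 27 were measured. All 27 were above 0, with 20 at least 0.5 and a median log2 ratio of 0.70. They ran from 0.35 for the L37a gene AT3G60245, with a signal of 15059.1 in GFP-TIE1-15 and 11769.0 in wild type, to 1.05 for the L36 gene AT2G37600, with 1281.8 in GFP-TIE1-15 and 595.4 in wild type. Of the 40S genes, 48 of 95 had a probe set of 1 gene and 41 were measured, with 29 at least 0.5 and a median of 0.63. They ran from 0.28 for the S8 gene AT5G20290 to 1.20 for the S9 gene AT5G39850. Of the acidic stalk genes P0 to P3, 12 of 13 were measured, with 9 at least 0.5 and a median of 0.67, from 0.40 for the P1 gene AT1G01100 to 0.96 for the P2 gene AT3G28500. Each of these ranges largely overlapped that of L3 to L28.

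Factors that assemble the 60S subunit were also higher. Of 24 listed, 12 had a probe set of 1 gene and 11 were measured. A log2 ratio of at least 0.5 was reached by 10 of the 11, beside 10.4% of all measured named genes. The median log2 ratio was 0.77. The highest was AT1G52930, listed as BRX1, with a signal of 1732.3 in GFP-TIE1-15 and 670.9 in wild type, a log2 ratio of 1.31. The lowest was AT2G44860, listed as RLP24, with 2243.5 in GFP-TIE1-15 and 1601.7 in wild type, a log2 ratio of 0.47. Both factors act on precursors of the large subunit in yeast. Nuclear genes for proteins of the large, 50S subunit of the plastid ribosome did not share the direction. Of 22 listed, 6 had a probe set of 1 gene, and all 6 were measured. All 6 were below 0, with a median of -0.19, where 52.5% of all measured named genes were above 0. Genes of other kinds in the signal ranges of the dimmest, middle and brightest 60S genes had medians of -0.01, -0.05 and -0.21. The plastid genes ran from -0.27 for AT3G54210, of plastid L17, with 6306.9 in GFP-TIE1-15 and 7594.8 in wild type, to -0.07 for AT4G17560, of plastid L19.

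**Figure D4:**
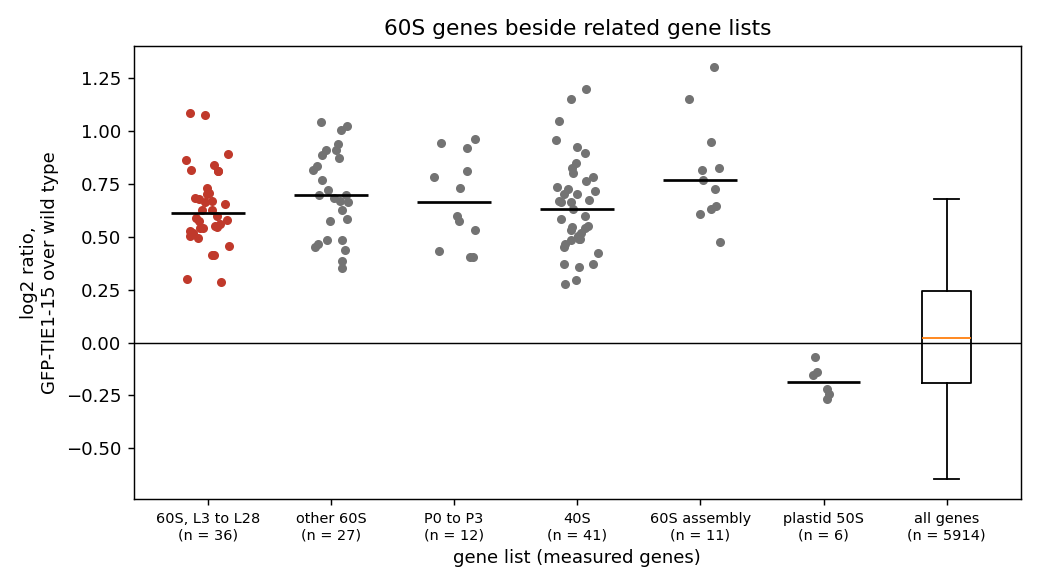
Ratio of GFP-TIE1-15 to wild type on a log2 scale (y axis) of each measured gene (points, with a bar at the median) in the 60S list of L3 to L28 and in related lists, beside a box for all 5914 measured named genes (box at the quartiles, line at the median, whiskers at the 5th and 95th percentiles). The 4 lists of cytosolic ribosomal proteins and the 60S assembly factors lie above 0, with medians from 0.61 to 0.77, and the 6 plastid 50S genes lie below 0.

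The genes lie on all 5 chromosomes and were higher on each. Chromosome 3 held 10 of the 36, chromosomes 2, 4 and 5 held 7 each and chromosome 1 held 5. The medians by chromosome ran from 0.56 on chromosome 5 to 0.66 on chromosome 2. Of the 72 genes directly next to a measured 60S gene, leaving out ribosomal ones, 14 were measured. Of these 14, 8 had a log2 ratio above 0, beside 52.5% of all measured named genes. The median of the 14 was 0.01, from -0.60 to 0.44, so the highest neighbour, AT1G67420, lay above the lowest 60S genes. None of the 14 reached 0.5, which 10.4% of all measured named genes did.

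On these arrays the median signal of all probe sets was 173.05 in GFP-TIE1-15 and 169.3 in wild type, and the trimmed mean was 500.05 on both. TIE1 (AT4G28840) had no probe set assigned to 1 gene, so the transgene was not checked. Among 64 control probe sets, those of bacterial and phage spike-ins with Bio or Cre in their names were examined. They gave 6 measured probe sets, all 6 below 0, with a median log2 ratio of -0.27. The other control probe sets were not examined. The marker lists were limited mainly by the annotation, since most of their genes had no probe set assigned to 1 gene. Of 19 listed markers of green shoot tissue, 2 had such a probe set, and both were measured. Their summed signal was 36981.1 in GFP-TIE1-15 and 46720.1 in wild type, with log2 ratios of -0.33 for LHCB4.1 and -0.35 for RCA. Of 13 root markers 3 had one, and only PYK10 was measured, at 5954.0 in GFP-TIE1-15 and 6745.9 in wild type. EXPA7 and EXPA18, which mark root hairs, were below the minimum on both arrays. Of 17 markers of dividing tissue, 2 had a probe set assigned to 1 gene. Both were measured and moved with the 60S genes, with a summed signal of 877.1 in GFP-TIE1-15 and 549.7 in wild type. AUR1 had a log2 ratio of 0.58 and AUR2 one of 0.61, both kinases of cell division. With other scalings of the arrays the median of the 60S genes lay between 0.58 and 0.63. The part of dividing tissue and of the lower spike-in signal in the result was not tested, and with 1 array per genotype a difference between the sampled plants cannot be told apart from the genotype.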

How the data were processed

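The deposited values hold, for each array, 22810 signals of intensity on a linear scale that the authors had already summarised per probe set. The submitters' processing notes name GCOS 1.0 and MAS5. The target of any scaling is not given in the sources used here, and detection calls were not used.

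Genes were assigned through the platform annotation, in which 13513 probe sets carried 1 symbol, 503 carried several and named no gene here, and 8730 besides the controls were unnamed. Of the first kind, 13436 matched a locus of the TAIR10.1 RefSeq table, which served for names and neighbours only. A pseudocount of 10% of the trimmed mean (2% removed at each end) was added before log2, so ratios of dim genes come out too small. Several probe sets of 1 gene were averaged. The brightness minimum was 40% of the trimmed mean on either array.

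Members, lists and size rules were chosen with earlier results of these data known. Scripts were tested on simulated data. Values were to be given for the 6 highest, 6 lowest, 5 brightest and 5 dimmest members, for paralogues differing by at least 0.3, and for the extremes of each list, and those of the remaining members were added after they were seen. Sequences were not used here. The software was Python 3.11.15 with matplotlib 3.10.9, statsmodels 0.14.6, scipy 1.17.1, pandas 2.3.3 and numpy 2.4.6.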

Additional observations from a re-analysis of the deposited data

How the results depend on the processing

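No paired analysis was possible because a genotype is 1 array here. Scaling was changed to quantile normalization, to equal medians or to removal of a loess trend. The pseudocount was set to 1 or raised to 25% of the trimmed mean. The brightness minimum was dropped or raised to 100% of that mean, and probe sets marked as shared were removed. Under these settings the median log2 ratio of the 60S genes, 0.61, lay between 0.58 (equal medians) and 0.63 (loess). The 30 genes at or above 0.5 became 27 to 31, the number at or above 1 was 2 each time, and the median paralogue difference of 0.24 lay between 0.19 and 0.25. All 36 measured genes were above 0 under each scaling and pseudocount, while without a minimum AT3G48960 was added at -0.29. The raised minimum and the removal of shared probe sets took none of the 36 genes, so they tested nothing here. For 25 single genes, all 125 values under other scalings and pseudocounts had the same sign and moved by less than 0.12. Added after the data had been seen, 4 probe sets shared by pairs of genes of one 60S protein had log2 ratios from 0.26 to 0.77. They were 0.26 for L6, 0.38 for L9, and 0.68 and 0.77 for L21. With these 4 probe sets the median was 0.61 over 40 values. One mean per protein gave 0.62. The median of all measured named genes was between -0.01 and 0.02 under each scaling. Signal over background limits dim genes such as AT3G48960.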
